A study of Mus musculus with 8 samples.

Results

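The interleukin-1 (IL-1) family ligands and receptors described here are 9 genes, Il1a, Il1b, Il1rn, Il1r1, Il1r2, Il1rap, Il18, Il33 and Il18bp, taken by symbol from the 27923 genes of 8 tables of single-cell UMI counts. Each table listed all 9, and each library had a UMI of each, except that the border library of Tumor 2 had no Il33 UMI in the barcodes kept. The counts came from Seq-Well, in which single cells are lysed in microwells and the 3′ end of each mRNA is caught on a bead and tagged with a barcode for the cell and a unique molecular identifier (UMI) for the molecule. The cells came from 2 lung tumors of a genetically engineered mouse model, called Tumor 1 and Tumor 2, each from 1 mouse. For each tumor, 1 library held cells photoactivated at the Healthy/Tumor Border and 3 libraries, which were technical arrays, held non-photoactivated cells of the Whole Tumor.

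Both mice carried the same engineered alleles, p53 fl/fl among them, in chimeras made from embryonic stem cells on the C57BL/6 background. Tumors were started at 12 weeks of age by adenovirus in which the surfactant protein C promoter drives Cre, so that recombination starts in surfactant-producing lung epithelium, and were collected 16 weeks later. Tumor slices were loaded with a caged calcein that fluoresces after light exposure, and live cells were sorted with or without that signal. Animals of both sexes were used in the study, and the level of Xist, the RNA of the inactive X chromosome, was 399 to 609 UMIs per 1000000 in the libraries of Tumor 1 and 2.04 to 2.67 in those of Tumor 2. Sex, mouse and tumor cannot be told apart. The names of the barcodes inside the tables carried the other tumor's number in all 8 libraries, and the sample labels were used. Under these labels the border libraries held 686 barcodes in Tumor 1 and 534 in Tumor 2, the cell numbers given in the paper. With 1 mouse per tumor and 1 border library per tumor, p-values of tests between regions or tumors measure the spread between technical arrays. The border library was assumed to vary like them. In comparisons of classes or types, p-values measure how the difference varied between libraries, which come from both tumors unless 1 tumor is named. With the tumor as the unit, p-values measure how the border change differed between the 2 tumors.

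IL-1 alpha and IL-1 beta, the products of Il1a and Il1b, both signal through a receptor made of the Il1r1 product and the accessory chain encoded by Il1rap, and thereby switch on NF-κB target genes. The Il1rn product occupies the receptor without signalling, and the Il1r2 product is a decoy receptor that binds ligand without a signal. IL-18 and IL-33 are family members with receptors of their own, IL-33 being stored in the nucleus of barrier cells and IL-18 being neutralized by the product of Il18bp. In lung tumors, myeloid cells are a well known source of IL-1.

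Il1a, Il1b and Il1rn lie on chromosome 2 (GRCm38, which is mm10, with the GENCODE annotation). Il1a spans chr2:129299610-129309972 and Il1b spans chr2:129364570-129371139, both on the minus strand, and Il1rn spans chr2:24336853-24351494 on the plus strand. The 2 receptor genes Il1r1 (chr1:40225080-40317257) and Il1r2 (chr1:40074079-40125231) are neighbours on the plus strand of chromosome 1. The rest are Il1rap (chr16:26581704-26730117, plus), Il18 (chr9:50554827-50581840, plus), Il33 (chr19:29925114-29960718, plus) and Il18bp (chr7:102014885-102018690, minus). All 9 are annotated as protein-coding. Exons of Il1a, Il1b, Il1rap and Il18bp overlap exons of a gene on the opposite strand. The opposite gene had 85 UMIs for Il1a and 10 UMIs for Il1rap, against 6122 and 527 of the member. For Il18bp it was Numa1, with 1625 UMIs against 56, so the Il18bp values are uncertain.

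The promoters of the neighbours Il1a and Il1b, and of Il1rn, are shown because these 3 genes carry the results in neutrophil-like cells and moved apart from each other. Each is the 120 bases before a RefSeq transcription start (GRCm38.p6), read 5′ to 3′ on the gene's strand. Il1a is chr2:129309973-129310092 (minus), Il1b is chr2:129371140-129371259 (minus) and Il1rn is chr2:24345171-24345290 (plus), 1 of 3 windows that RefSeq starts give this gene. Capitals mark matches to the TATA box letters TATAAA and, among these 3 sequences in Il1a only, to the AP-1 letters TGANTCA.
Il1a: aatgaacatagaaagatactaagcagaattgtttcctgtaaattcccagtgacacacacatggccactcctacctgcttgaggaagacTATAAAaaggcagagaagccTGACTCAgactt
Il1b: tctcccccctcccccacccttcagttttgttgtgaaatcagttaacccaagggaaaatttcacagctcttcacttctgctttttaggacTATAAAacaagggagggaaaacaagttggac
Il1rn: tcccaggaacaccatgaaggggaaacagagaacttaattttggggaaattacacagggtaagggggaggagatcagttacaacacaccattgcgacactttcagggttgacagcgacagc
The TATA letters lie 32 to 27 bases before the start in Il1a and 31 to 26 bases before it in Il1b. The AP-1 letters in Il1a lie 12 to 6 bases before the start. Both strands of 250 bases before each start were searched for these 2 motifs and for the C/EBP letters TTNNGCAA, and the window printed for Il1rn held none of the 3. Another of the Il1rn windows held the AP-1 letters, 141 to 135 bases before its start. Among 32851 windows of all genes, 12.4% held the TATA letters, 6.75% the AP-1 letters and 9.56% the C/EBP letters. A match is a run of letters and not a tested site, and counts of 3′ ends do not tell the starts of a gene apart.

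The 8 libraries held 405627 to 2029200 UMIs and 4343 barcodes, of which 3894 had at least 200 genes and were kept. The median kept barcode held 675.5 UMIs in the shallowest library, the second Whole Tumor array of Tumor 2, and 1654 to 2525.5 UMIs in the other 7. Each barcode was given the lineage of which it held the most marker genes, with at least 2 markers and more than of any other lineage. No member was a marker. This gave 1527 neutrophil-like, 545 macrophage-like, 235 epithelial-like, 144 B-like, 105 T/NK/ILC-like, 63 dendritic-like, 50 endothelial-like and 47 fibroblast-like barcodes, 2 mast or basophil-like ones that are not described, and 1176 unassigned ones. All 8 neutrophil markers were found in at least 10% of the neutrophil-like class, led by S100a9, Csf3r and S100a8. The study placed its Csf3r and G0s2 cells under monocytes or macrophages, so that a class rebuilt from markers need not match its clusters. Unassigned barcodes were shallow, with a median of 536.5 UMIs against 2329.5 in assigned ones. The border library of Tumor 1 held 2 macrophage-like and 11 epithelial-like barcodes, too few macrophage-like ones for a comparison.

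The 9 genes took 71091 of 9666493 kept UMIs, or 0.735%, and at least 1 of their UMIs was found in 2807 barcodes, 72.1% of those kept. Il1b had 41049 UMIs, Il1rn 17143, Il1a 6122, Il1r2 5740, Il1rap 527, Il1r1 238, Il18 109, Il33 107 and Il18bp 56. Neutrophil-like barcodes held 75.9% of Il1b, 76.8% of Il1rn, 72.5% of Il1a, 80.3% of Il1r2 and 79.5% of Il1rap UMIs. Il1r1, the signalling receptor, was placed otherwise, with 4.20% of its UMIs in neutrophil-like and 34.0% in fibroblast-like barcodes. Il33 UMIs were 86.0% epithelial-like and Il18 UMIs 66.1% macrophage-like. Levels are given as CPM, the UMIs of the gene per 1000000 UMIs of the class. The brackets and error bars of levels summed over a class are exact 95% Poisson intervals and those of shares are exact 95% Clopper-Pearson intervals, both for counting error only. Where a count was 0, the limit it allows is given as that of 3 counts.

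**Figure D1:**
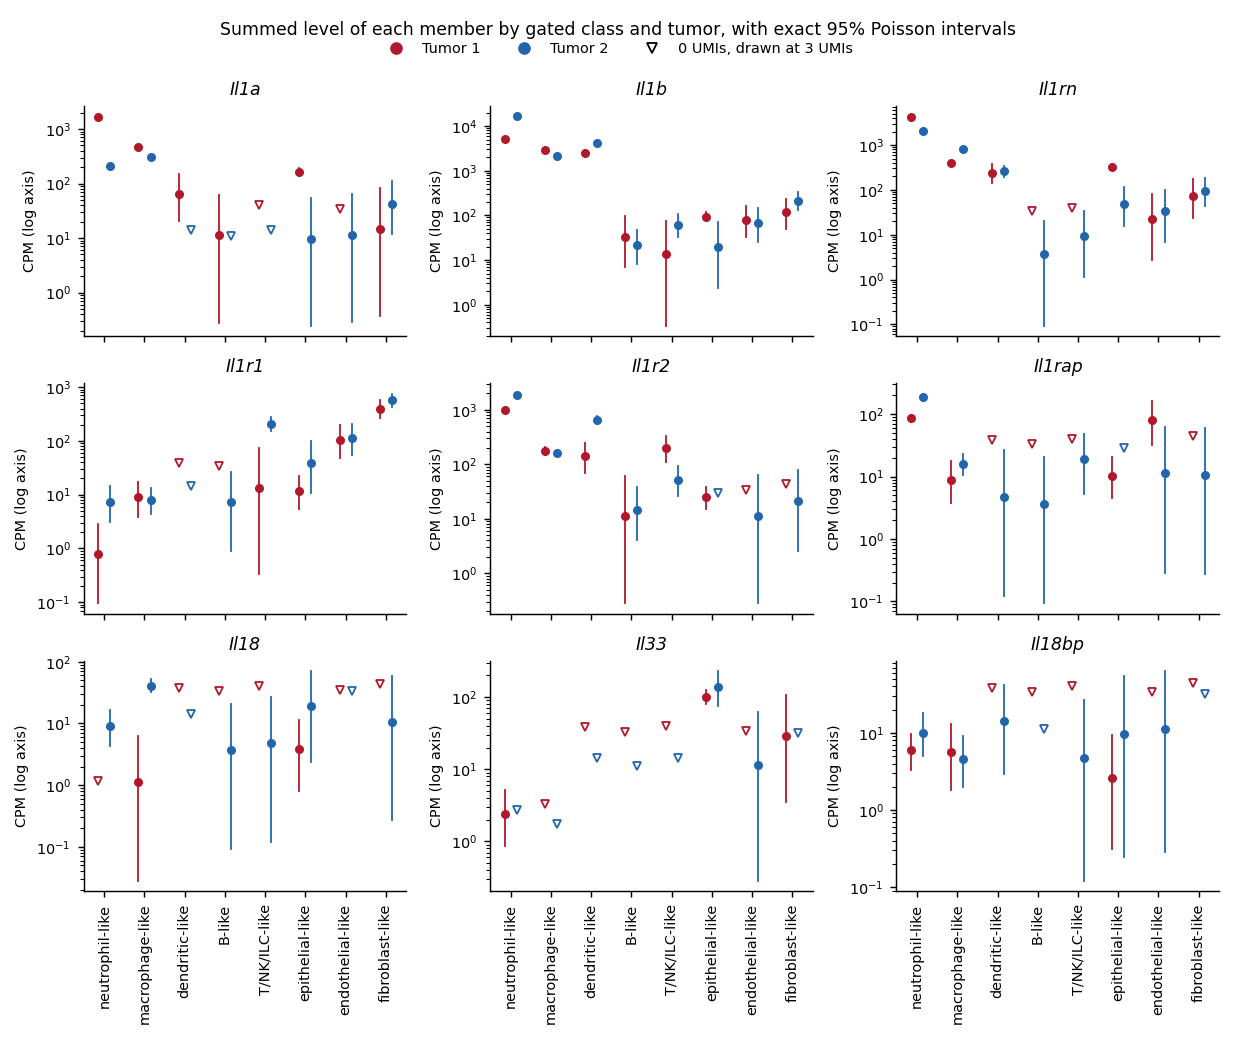
Level of each member (CPM, log axis) in 8 marker-gated classes, with the libraries of Tumor 1 (red) and Tumor 2 (blue) summed apart, bars as exact 95% Poisson intervals and open triangles for 0 UMIs, drawn at the level of 3 UMIs. Il1b, Il1rn and Il1r2 are highest in the neutrophil-like class in both tumors, Il1r1 in the fibroblast-like class, and Il1a lies higher in macrophage-like (311 CPM) than in neutrophil-like (213 CPM) sums of Tumor 2.

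Among the ligands, Il1b encodes a cytokine made as a precursor and cut by caspase-1. Its level was 8616 CPM (8521 to 8712) in neutrophil-like, 3789 CPM (3567 to 4020) in dendritic-like and 2417 CPM (2357 to 2477) in macrophage-like barcodes, summed over both tumors. The neutrophil-like level was the highest in each tumor, whereas the order of the other two turned, with 2492 CPM (2155 to 2866) in dendritic-like and 2923 CPM (2813 to 3037) in macrophage-like barcodes of Tumor 1 against 4276 and 2154 CPM in Tumor 2. The intervals of dendritic-like and macrophage-like barcodes overlapped in Tumor 1. A UMI of Il1b was found in 87.3% of neutrophil-like, 62.8% of macrophage-like and 60.3% of dendritic-like barcodes. B-like barcodes, which should lack it, had a UMI in 5.56% at a median depth of 2096 UMIs against 2101 in the neutrophil-like class, from 9 UMIs in all. The dendritic-like signal was led by the Ccr7 type, which carries the markers of mature migratory dendritic cells, at 4959 CPM in 33 barcodes. Among macrophage-like barcodes the C1q type, which expresses complement C1q genes, had 2866 CPM and the alveolar type 936 CPM. The alveolar-type level was uneven, at 397 to 2642 CPM in the 3 Whole Tumor arrays of Tumor 2.

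Il1a encodes a ligand that is active without cutting and acts also as an alarm signal from dying cells. Its level was 1228 CPM (1192 to 1264) in neutrophil-like, 362 CPM (340 to 386) in macrophage-like and 147 CPM (122 to 174) in epithelial-like barcodes. The shares with a UMI were 41.7%, 36.9% and 13.6% in that order, against 0.694% in B-like barcodes and 0 of 105 T/NK/ILC-like ones, which allows a share of up to 2.86%. The order held in Tumor 1, with 1667 CPM in neutrophil-like and 461 CPM in macrophage-like barcodes, and turned in Tumor 2, with 213 and 311 CPM. The border library of Tumor 1 held 2929 of the 4440 neutrophil-like UMIs. Without it the neutrophil-like level was 572 CPM and the share 31.1%, which is below the macrophage-like share. The epithelial-like value leans on 1 barcode of the second Whole Tumor array of Tumor 1, which held 55 of the 128 UMIs. Without that barcode the array's level was 78.3 CPM in place of 241 CPM, and without the array the class was at 87.5 CPM.

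Il1rn, the receptor antagonist, had 3641 CPM (3580 to 3704) in neutrophil-like, 670 CPM (639 to 702) in macrophage-like and 293 CPM (259 to 332) in epithelial-like barcodes. The shares with a UMI were 81.2%, 49.4% and 26.8%, against 0.694% in B-like barcodes. The epithelial-like level was that of Tumor 1, at 326 CPM from 251 UMIs, with 48.7 CPM from 5 UMIs in Tumor 2. In the epithelial-like class nearly all of it lay in the Krt type, which expresses keratin genes, with 244 of 256 UMIs and 371 CPM. In Tumor 1, the epithelial-like class held 3.18 Il1rn UMIs for each UMI of the neutrophil genes S100a8 and S100a9, against 0.704 in the neutrophil-like class of that tumor. The same ratio for Il1b was 0.911 in epithelial-like and 0.855 in neutrophil-like barcodes. For Il1a it was 1.61 in epithelial-like and 0.272 in neutrophil-like barcodes, and for Il1r2 0.241 and 0.164. The Il1rn ratio was 8.80 in the macrophage-like class of Tumor 1. These ratios were not tested. Whole Tumor array 1 of Tumor 1 held 50 of the 74 epithelial-like Il1b UMIs and 124 of the 256 epithelial-like Il1rn UMIs.

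Among the receptors, the decoy gene Il1r2 was highest in the classes that led for Il1b, in the same order when both tumors were summed. Its level was 1274 CPM (1238 to 1312) in neutrophil-like, 514 CPM (434 to 604) in dendritic-like and 167 CPM (152 to 184) in macrophage-like barcodes. Of the 148 dendritic-like UMIs 137 were from Tumor 2, at 655 CPM, and without Whole Tumor array 1 of that tumor the dendritic-like level was 328 CPM. In Tumor 1 the dendritic-like level was 140 CPM (69.8 to 250.2) and the macrophage-like level 175 CPM (149 to 205), with overlap. T/NK/ILC-like barcodes of that tumor were at 201 CPM, from 15 UMIs in 18 barcodes. Il1r2 was found in 63.0% of neutrophil-like, 34.9% of dendritic-like and 21.5% of macrophage-like barcodes, and in 3.47% of B-like ones. Il1rap, the accessory chain shared by the receptors for IL-1 and IL-33, had 116 CPM (105 to 128) in neutrophil-like and 13.7 CPM (9.59 to 19.0) in macrophage-like barcodes, with a UMI in 17.6% and 5.50% of them. In Tumor 1 its neutrophil-like level of 85.5 CPM (74.5 to 97.7) overlapped the endothelial-like one of 80.1 CPM, which came from 7 UMIs in 11 barcodes (32.2 to 165). Il1r1 had 502 CPM (398 to 624) in fibroblast-like barcodes, 158 CPM (116 to 212) in T/NK/ILC-like ones and 108 CPM (65.0 to 169) in endothelial-like ones, of which the last 2 intervals overlap. Neutrophil-like barcodes had 10 Il1r1 UMIs, or 2.77 CPM (1.33 to 5.09). The fibroblast-like level was 181 times this (93.8 to 393) and 3.17 times the T/NK/ILC-like level (2.174 to 4.67). Of the 81 fibroblast-like Il1r1 UMIs 23 lay in 1 barcode, and these intervals are for counting error only. Il1r1 was thus low in the classes in which Il1b, Il1a and Il1r2 were high.

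The fibroblast-like Il1r1 signal was seen in both tumors, with 27 UMIs in 17 barcodes of Tumor 1 (397 CPM) and 54 UMIs in 30 barcodes of Tumor 2 (578 CPM). The 3 Whole Tumor arrays of Tumor 2 gave 731, 766 and 665 CPM and its border library 218 CPM from 5 UMIs. In Tumor 1 the arrays gave 0, 424 and 316 CPM, the first from a single barcode. The T/NK/ILC-like signal came almost wholly from Tumor 2, with 44 of 45 UMIs, and 34 of these lay in Whole Tumor array 3. Without that array the T/NK/ILC-like level was 55.8 CPM, below the endothelial-like one. Il18 and Il33, the ligands with receptors of their own, were sparse, and most UMIs of each lay in 1 class. Il18 had 72 UMIs in macrophage-like barcodes (27.4 CPM, 21.4 to 34.5), of which 61 lay in the 60 alveolar-type barcodes. There its level was 160 CPM, 32.7 times that of the other macrophage-like barcodes (17.0 to 68.9), and 27 of the 60 barcodes had a UMI. Alveolar-type barcodes were found only in Tumor 2, so this Il18 signal is that of 1 mouse.

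Il33 had 92 UMIs in epithelial-like barcodes (105 CPM, 85.0 to 129), 18.7% of which had a UMI. None was found in 545 macrophage-like barcodes, which allows up to 0.550% of barcodes, so that against a floor of 3 UMIs over the class the epithelial-like level was at least 92.4-fold higher. The Sftp type, which expresses surfactant genes, had 200 CPM and the Krt type 83.5 CPM, a ratio of 2.40 (1.52 to 3.74). The 3 Whole Tumor arrays of Tumor 1 gave 70.3, 113 and 123 CPM and the border library of that tumor 96.4 CPM from 5 UMIs, all in 1 of its 11 epithelial-like barcodes. Il18bp was at 10.4 CPM or less in each class, with 26 of its 56 UMIs in neutrophil-like barcodes, and the intervals of the classes overlapped. For all 9 genes the class with the highest level was the same under each of 6 choices of barcodes. For Il18bp this was the dendritic-like class, on 3 UMIs in 1 barcode. By share of barcodes its highest class changed between macrophage-like and endothelial-like under these choices.

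**Figure D2:**
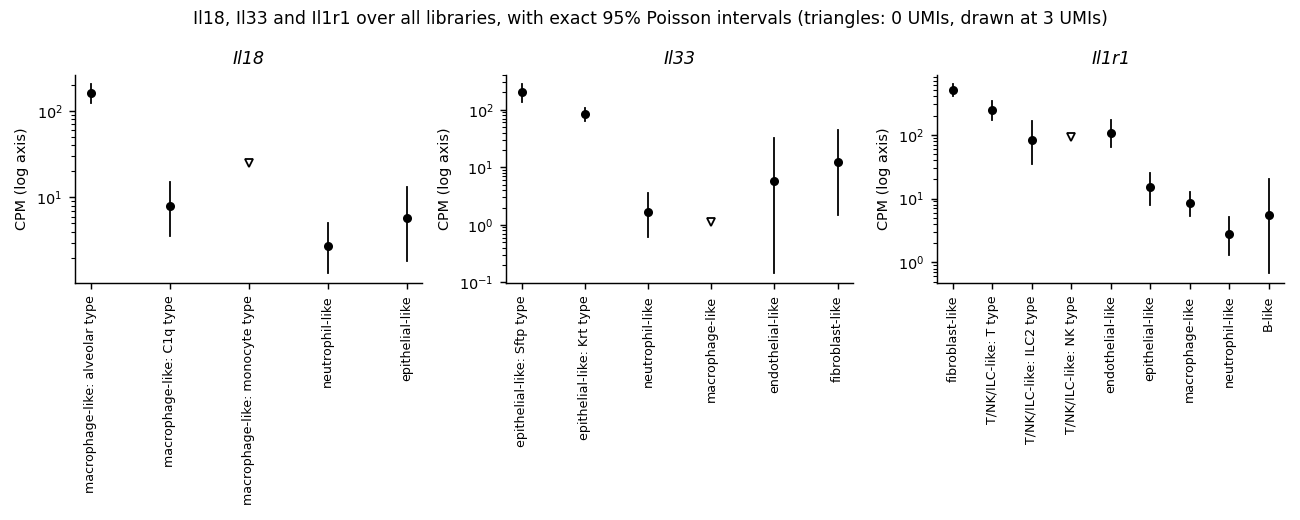
Level (CPM, log axis) of Il18, Il33 and Il1r1 in the classes and types named on the x axis, summed over all libraries, with exact 95% Poisson intervals and open triangles for 0 UMIs, drawn at the level of 3 UMIs. Il18 is highest in the alveolar type at 160 CPM, Il33 in the Sftp type at 200 CPM and Il1r1 in fibroblast-like barcodes at 502 CPM.

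Neutrophil-like and macrophage-like barcodes were compared within libraries, with UMIs summed per class and library and the library as a block, in the 7 libraries with at least 10 barcodes of both. With edgeR's quasi-likelihood test and Benjamini-Hochberg adjustment over 3968 genes, 46.2% of all genes were called at 0.05, 23.5% higher and 22.7% lower in neutrophil-like sums. Of the members, 5 passed the filter on low counts and 4 of these were higher in the neutrophil-like class. The log2 difference was 3.41 (SE 0.26, adjusted p = 2.91e-06) for Il1r2, 2.29 (SE 0.31, adjusted p = 0.000115) for Il1rn and 1.99 (SE 0.44, adjusted p = 0.00314) for Il1b. Il1rap was at 3.38 (SE 0.44), from 419 UMIs in neutrophil-like and 36 in macrophage-like barcodes over all libraries. It passed the filter through the neutrophil-like sums alone, so that its call only restates the counts. Il1a differed by 0.19 (SE 0.32, adjusted p = 0.657) and was not called. Within Tumor 1 alone it was 0.77 higher in neutrophil-like sums (adjusted p = 0.00174), and within Tumor 2 alone it was at -0.44 (adjusted p = 0.299). The other 4 were called higher in neutrophil-like sums of each tumor alone, Il1b by 0.62 in Tumor 1 and 2.85 in Tumor 2. Of all genes, 42.9% were called in Tumor 1 alone and 59.1% in Tumor 2 alone, in either direction. The neutrophil-marker sum in macrophage-like barcodes was 132 CPM over all libraries, against 13290 CPM in the neutrophil-like class.

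Other genes of the pathway, from lists of IL-1 family ligands, receptors, processing, signalling and induced genes, moved with them in part. The 1 other family ligand tested, Il1f9, which encodes IL-36 gamma, was higher in neutrophil-like sums by 8.31 (SE 0.65). Il18rap, a chain of the IL-18 receptor, was higher by 5.33 (SE 0.36). Macrophage-like barcodes held only 11 Il1f9 and 24 Il18rap UMIs over all libraries, against 5093 and 854 in neutrophil-like ones. Both genes passed the filter on low counts through the neutrophil-like sums. Their calls thus only restate the counts, and the size of both differences is uncertain. Of 16 signalling genes 9 were higher and 1 lower, among them Irak2 at 2.42, and of 6 induced genes 4 were higher and 1 lower, among them the chemokine gene Cxcl2 at 2.64. The median log2 difference was 0.74 over the signalling genes and 1.71 over the induced genes, against -0.03 over all genes.

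Within the neutrophil-like class, the levels of the ligands differed between the tumors in opposite directions. Il1b was at 4482, 4712 and 4756 CPM in the Whole Tumor arrays of Tumor 1 and at 16516, 22203 and 18208 CPM in those of Tumor 2. Il1a was at 810, 830 and 827 CPM in Tumor 1 and at 177, 99.5 and 144 CPM in Tumor 2. The arrays of the tumors did not overlap for either gene, with Il1b higher and Il1a lower in Tumor 2. Il1rn was at 3598, 3466 and 3664 CPM in Tumor 1 and at 2028, 1761 and 1761 CPM in Tumor 2. Il1r2 was at 1374, 1121 and 1154 CPM in Tumor 1 and at 1877, 1621 and 1768 CPM in Tumor 2. Il1rap was at 79.2, 95.8 and 93.4 CPM in Tumor 1 and at 177, 288 and 219 CPM in Tumor 2. These 3 genes did not overlap between the arrays of the tumors either, the antagonist being lower and both receptor chains higher in Tumor 2.

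**Figure D3:**
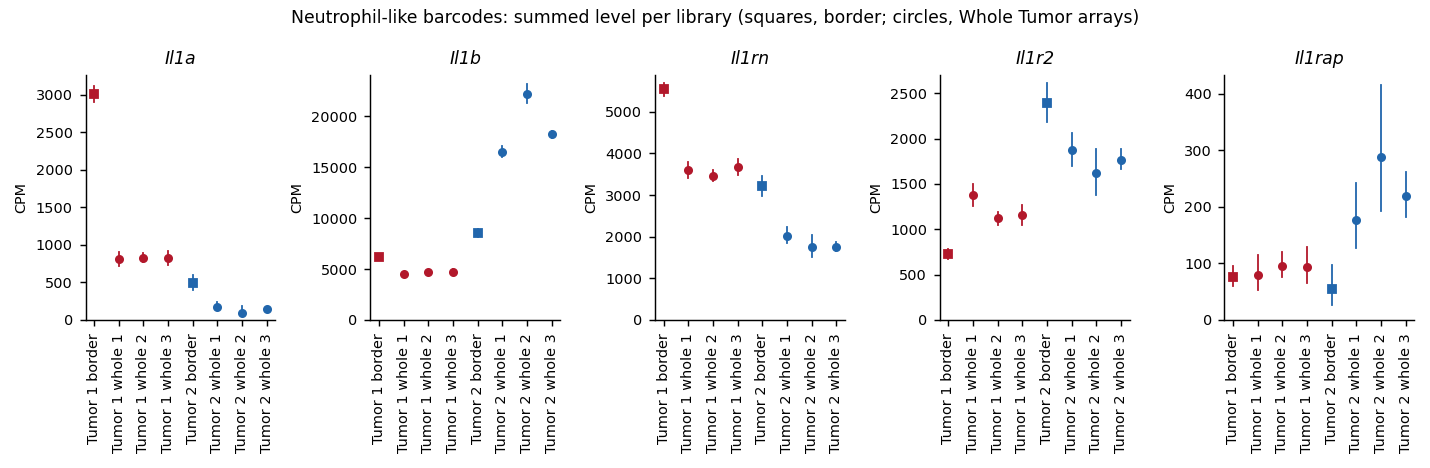
Level (CPM, y axis from 0) of Il1a, Il1b, Il1rn, Il1r2 and Il1rap in the neutrophil-like barcodes of each library; squares are border libraries, circles Whole Tumor arrays, red Tumor 1 and blue Tumor 2, with exact 95% Poisson intervals. The Il1b border value of Tumor 1 (6148 CPM) lies above its arrays and that of Tumor 2 (8557 CPM) below its arrays, whereas both Il1a border values lie above.

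The edgeR test of Whole Tumor 2 against Whole Tumor 1 called 42.5% of 6243 genes in neutrophil-like sums, 21.9% higher and 20.6% lower in Tumor 2, and 4 of the 5 members tested. Il1b was higher in Tumor 2 by 2.80 on the log2 scale (SE 0.18, adjusted p = 2.41e-17), Il1rap by 2.08 (SE 0.25, adjusted p = 2.82e-09) and Il1r2 by 1.32 (SE 0.18, adjusted p = 5.76e-08). Il1a was lower in Tumor 2, at -1.68 (SE 0.22, adjusted p = 1.49e-08). Il1rn was at -0.17 (SE 0.17, adjusted p = 0.447) and was called lower where library size alone scaled the sums, at -0.97 (adjusted p = 1.80e-06). That scaling moved the median of all genes by 0.83 against the TMM scale and called 65.1% of the 6243 genes. With no filter on low counts 10.8% of 20856 genes were called. The neutrophil markers moved with these values, their summed level being 8258 to 9738 CPM in the Tumor 1 arrays and 25551 to 27170 CPM in the Tumor 2 arrays, and their part in the result was not tested.

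The balance of antagonist to agonist does not depend on the scaling. Neutrophil-like barcodes of Whole Tumor 1 held 0.803, 0.736 and 0.770 Il1rn UMIs for each Il1b UMI (0.770 ± 0.0337, SD, n = 3 arrays), and those of Whole Tumor 2 held 0.123, 0.0793 and 0.0967 (0.0996 ± 0.0219, SD, n = 3). The border libraries held 0.901 in Tumor 1 and 0.375 in Tumor 2, both above the arrays of their tumor. Between the tumors the arrays did not overlap, and the two-sided exact permutation test gave p = 0.1, the smallest that 3 against 3 allow. Il1a UMIs for each Il1b UMI were 0.177 ± 0.00348 in Whole Tumor 1 and 0.00772 ± 0.00314 in Whole Tumor 2 (SD, n = 3 each, exact permutation p = 0.1), with 0.489 and 0.0579 at the borders. In macrophage-like barcodes the order of the tumors was the other one, with 0.144 ± 0.0562 Il1rn UMIs for each Il1b UMI in Tumor 1 and 0.334 ± 0.0901 in Tumor 2 (SD, n = 3 each, exact permutation p = 0.1).

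**Figure D4:**
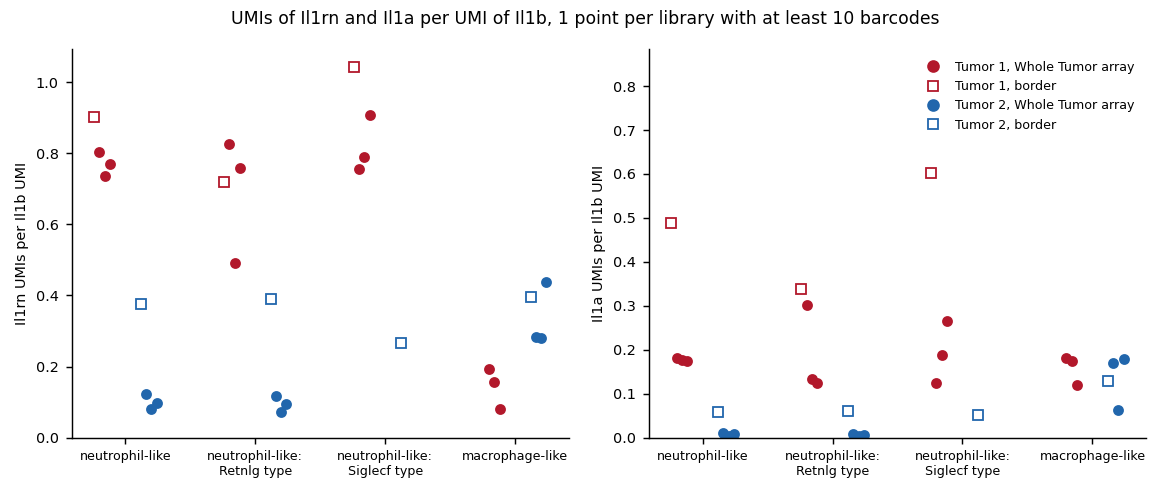
Il1rn UMIs (left) and Il1a UMIs (right) for each Il1b UMI (y axes from 0) in the neutrophil-like class, its Retnlg and Siglecf types and the macrophage-like class, 1 point for each library with at least 10 barcodes; circles are Whole Tumor arrays and open squares border libraries, red for Tumor 1 and blue for Tumor 2. In the neutrophil-like class the Tumor 1 arrays lie at 0.736 to 0.803 Il1rn UMIs for each Il1b UMI and the Tumor 2 arrays at 0.0793 to 0.123.

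The neutrophil-like class was split by markers into a Retnlg type, which carries genes of neutrophils fresh from the blood, and a Siglecf type, which carries genes of the SiglecF-high neutrophils known from lung tumors. The split differed between the tumors. The Retnlg type made up 19.7% to 31.9% of the class in the libraries of Whole Tumor 1 and 85.1% to 93.1% in those of Whole Tumor 2. Within the Retnlg type alone, Il1rn UMIs for each Il1b UMI were 0.692 ± 0.178 in Whole Tumor 1 and 0.0954 ± 0.0221 in Whole Tumor 2 (SD, n = 3 each, exact permutation p = 0.1), and 0.720 and 0.389 at the borders. The gap between the tumors was therefore present within 1 type. The neutrophil markers differed within this type too. They summed to 8363 to 12697 CPM in the Tumor 1 arrays and 26335 to 27721 CPM in the Tumor 2 arrays. Their part in the gap was not tested. Il1b itself was at 6454 ± 1543 CPM in the Retnlg type of Whole Tumor 1 and 19955 ± 2955 CPM in that of Whole Tumor 2 (SD, n = 3 arrays each). Whole Tumor 2 held only 3 to 5 Siglecf-type barcodes per array, and that type was not compared between the tumors.

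The types were compared in the 5 libraries that held at least 10 barcodes of both, 4 of them from Tumor 1. There edgeR called 7.83% of 2515 genes, 6.16% higher and 1.67% lower in the Retnlg type, and 2 of the 5 members tested were higher in the Retnlg type. Il1b was higher by 0.79 (SE 0.17, adjusted p = 0.00345) and Il1rn by 0.61 (SE 0.17, adjusted p = 0.0205). Without the second Whole Tumor array of Tumor 1 neither was called, with adjusted p = 0.0584 for Il1b and 0.0800 for Il1rn, and 81 genes were called (3.26%) in place of 197. The call of Il1rn was also lost with library size only (0.36, adjusted p = 0.154), with no filter on low counts (adjusted p = 0.0726), without barcodes of a second lineage (0.0871), without the third Whole Tumor array of Tumor 1 (0.0697) and in Tumor 1 alone (0.0626). Il1a was at 0.57 (adjusted p = 0.105), Il1rap at 0.87 (adjusted p = 0.132) and Il1r2 at 0.02 (adjusted p = 0.973). Of 5 induced genes 4 were higher in the Retnlg type, among them the chemokine genes Cxcl3 at 2.48 (SE 0.21, adjusted p = 1.36e-08) and Cxcl2 at 1.48 (SE 0.17, adjusted p = 2.25e-06), and Ptgs2, which encodes cyclooxygenase-2, at 1.92 (SE 0.34, adjusted p = 0.000444). Nfkbiz, a nuclear regulator of NF-κB, was at 1.26 (SE 0.21, adjusted p = 0.000227).

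At the Healthy/Tumor Border of Tumor 1, neutrophil-like barcodes held more of the 3 ligand genes. Il1a was at 3006 CPM in the border library and 822 ± 10.7 CPM in the arrays (SD, n = 3), 3.66 times as high, and 72.6% of border barcodes had a UMI against 49.3% to 59.4% in the arrays. Il1rn was at 5537 CPM against 3576 ± 101 CPM and Il1b at 6148 CPM against 4650 ± 147 CPM (SD, n = 3 each). All 3 border values lay above each array. Il1r2 was at 723 CPM, below the arrays (1216 ± 137 CPM), and Il1rap at 75.9 CPM, just below them (89.5 ± 8.95 CPM, SD, n = 3 each). When each barcode was thinned to 1000 UMIs, leaving out 41 border and 50 Whole Tumor barcodes, a UMI of Il1a remained in 61.3% (55.9% to 66.4%) of border and 36.1% (31.9% to 40.5%) of Whole Tumor barcodes.

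The edgeR test in Tumor 1 called 8.39% of 6243 genes, 6.89% higher and 1.51% lower, and 3 of the 5 members tested were higher at the border. The log2 fold change was 2.41 for Il1a (SE 0.23, adjusted p = 4.28e-11), 1.17 for Il1rn (SE 0.22, adjusted p = 0.000245) and 0.94 for Il1b (SE 0.23, adjusted p = 0.00410). Il1rap was at 0.29 (SE 0.33, adjusted p = 0.666) and Il1r2 at -0.21 (SE 0.25, adjusted p = 0.681). Under library-size scaling, which moves the median of all genes by 0.56, Il1b was at 0.38 and not called (adjusted p = 0.161) and Il1r2 was at -0.76 and called (adjusted p = 0.0197). With no filter on low counts Il1b was at 1.05 and not called (adjusted p = 0.0700). With at least 500 genes per barcode only the call of Il1a stayed, the values being 0.97 for Il1b (SE 0.75, adjusted p = 0.561) and 1.17 for Il1rn (SE 0.63, adjusted p = 0.343), close to those above but with larger errors. Macrophage markers in the neutrophil-like class summed to 359 CPM at this border and 710 to 1253 CPM in the arrays, with the 3 C1q genes among those at 0 at the border, and their part in the result was not tested. Within the Retnlg type alone, Il1a was at 2661 CPM at the border against 1114 ± 312 CPM in the arrays and Il1b at 7870 CPM against 6454 ± 1543 CPM (SD, n = 3 each), so that for Il1b the border lay within 1 SD of the mean of the arrays. Within the Siglecf type both border values lay above each array, Il1b at 5067 CPM against 3973 ± 381 CPM and Il1a at 3046 CPM against 746 ± 208 CPM (SD, n = 3 each).

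The 1 other family ligand tested, Il1f9, was higher at this border too, by 1.99 (SE 0.23, adjusted p = 1.13e-08). Of 7 induced genes tested 6 were higher and none lower, with a median log2 fold change of 2.25 against -0.08 over all genes. Nfkbiz was higher by 3.03 (SE 0.22, adjusted p = 4.84e-14), Tnfaip3, which encodes the NF-κB brake A20, by 2.85 (SE 0.24, adjusted p = 3.09e-12) and Cxcl2 by 2.65 (SE 0.23, adjusted p = 3.32e-12). Nlrp3, the sensor of the inflammasome that leads to the cutting of IL-1 beta, was higher by 2.87 (SE 0.24, adjusted p = 2.15e-12) and was the 1 gene called of 7 in processing and release. Of 18 signalling genes 4 were higher and none lower, and of 2 other genes of the receptor family none was called (median -1.01).

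At the border of Tumor 2 the ligands parted. Il1a was at 495 CPM in the border library and 140 ± 39.2 CPM in the arrays (SD, n = 3), 3.53 times as high, with a UMI in 32.6% of border barcodes against 3.36% to 11.4%. Il1b was at 8557 CPM against 18975 ± 2920 CPM (SD, n = 3), or 0.451 times. Il1rn was at 3212 CPM against 1850 ± 154 CPM, Il1r2 at 2388 CPM against 1756 ± 128 CPM and Il1rap at 53.9 CPM, from 11 UMIs, against 228 ± 56.1 CPM (SD, n = 3 each). The border lay above each array for Il1a, Il1rn and Il1r2 and below each array for Il1b and Il1rap.

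In this tumor edgeR called 7.72% of the same 6243 genes, 2.84% higher and 4.89% lower, with Il1a higher and Il1b and Il1rap lower among the 5 members tested. The log2 fold change was 1.35 for Il1a (SE 0.30, adjusted p = 0.00227), -1.52 for Il1b (SE 0.26, adjusted p = 0.000134) and -2.43 for Il1rap (SE 0.46, adjusted p = 0.000477). Il1rn was at 0.41 (SE 0.24, adjusted p = 0.326) and was called at 0.80 under library-size scaling (adjusted p = 0.00901), which moves the median of all genes by 0.42 in size here. Il1r2 was at 0.05 (SE 0.25, adjusted p = 0.933). With at least 500 genes per barcode Il1a was at 1.26 (SE 0.58, adjusted p = 0.254) and Il1b at -1.32 (SE 0.86, adjusted p = 0.475), near the values above with larger errors and not called. The call of Il1a ended also with no filter on low counts (adjusted p = 0.0550). The Retnlg type made up 68.4% of the class at the border, below the arrays, and the neutrophil markers summed to 11646 CPM at the border, below 25551 CPM in the lowest array. The T/NK/ILC markers summed to 142 CPM in the class at the border, with 4 of 10 detected and Cd3d, Cd3e, Trac and Trbc2 at 0, against 0 to 48.8 CPM in the arrays. The part of these in the result was not tested. Within the Retnlg type alone the border was at 8942 CPM of Il1b against 19955 ± 2955 CPM and at 541 CPM of Il1a against 117 ± 27.8 CPM (SD, n = 3 each), in both cases outside the range of the arrays.

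Of the pathway, 0 of 7 induced genes were higher at the border of Tumor 2 and 2 were lower, Ptgs2 at -1.92 (SE 0.30, adjusted p = 4.02e-05) and Tnfaip3 at -1.15 (SE 0.29, adjusted p = 0.00934). Of 18 signalling genes 2 were higher and 3 lower, among them Tollip, an adaptor that restrains the receptor, at 1.36 (SE 0.38, adjusted p = 0.0180) and Irak3, an inhibitor of the same cascade, at -1.23 (SE 0.39, adjusted p = 0.0419). The call of Irak3 was lost under 8 of the alternatives. That of Tnfaip3 was lost with library size only (-0.75, adjusted p = 0.0579), with no filter (adjusted p = 0.120) and with at least 500 genes per barcode (-0.69, adjusted p = 0.654). With 500 genes Ptgs2 (-1.68, adjusted p = 0.146) and Tollip (1.25, adjusted p = 0.126) were not called either, nor was Tollip with no filter (adjusted p = 0.149).

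**Figure D5:**
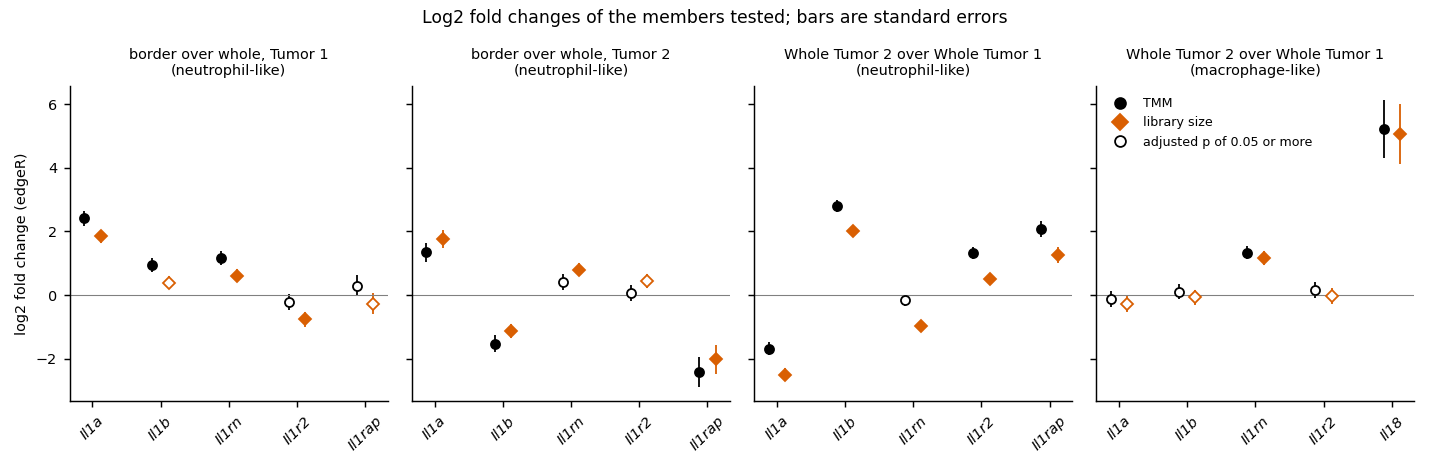
Log2 fold changes (edgeR, y axis) of the members tested in 4 comparisons, with bars of 1 standard error; black circles are scaled by TMM, orange diamonds by library size, and open symbols have an adjusted p of 0.05 or more. Il1b lies at 0.94 for the border of Tumor 1 and at -1.52 for that of Tumor 2, and Il1a lies above 0 at both.

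The difference between the tumors in the change at the border was tested itself, as Tumor 1 minus Tumor 2, and 10.3% of 6243 genes were called, 7.42% higher and 2.87% lower. Il1b differed by 2.47 (SE 0.35, adjusted p = 1.09e-06) and Il1rap by 2.72 (SE 0.57, adjusted p = 0.000827). Il1a, which was called higher in both tumors, differed by 1.06 (SE 0.39, adjusted p = 0.0781, and 1.21 with adjusted p = 0.0237 without the shallow second array of Tumor 2), Il1rn by 0.76 (SE 0.34, adjusted p = 0.161) and Il1r2 by -0.26 (SE 0.35, adjusted p = 0.713). With at least 500 genes per barcode the call of Il1b ended (2.29, adjusted p = 0.266), and with library-size scaling Il1r2 was called at -1.21 (adjusted p = 0.00664). Of 7 induced genes 4 differed, all with the larger change in Tumor 1, led by Ptgs2 at 4.50 (SE 0.39, adjusted p = 1.47e-11) and Tnfaip3 at 4.00 (SE 0.41, adjusted p = 9.40e-10). Nfkbiz differed by 3.86 (SE 0.37, adjusted p = 1.21e-10) and Nlrp3 by 3.40 (SE 0.39, adjusted p = 1.30e-08), and Il1f9 differed by 2.77 (SE 0.37, adjusted p = 3.07e-07). With the tumor as the unit, 1 sum for each border and each Whole Tumor, edgeR called 0 of 6495 genes (0%), and DESeq2 also called 0, whereas edgeR called 2 without Whole Tumor array 2 of Tumor 1 and 2 without Whole Tumor array 1 of Tumor 2. There 174 genes had an unadjusted p under 0.05 in edgeR. None of the members tested was among them, Il1a having a log2 fold change of 1.82 (SE 1.04, adjusted p = 0.999).

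In macrophage-like barcodes the border could be compared in Tumor 2 only. Il1b was at 1938 CPM in the border library and 2729 ± 759 CPM in the arrays, Il1a at 249 CPM and 359 ± 173 CPM, and Il1rn at 768 CPM and 866 ± 49.9 CPM (SD, n = 3 each). The Il1b and Il1a border values lay within the range of the arrays, and Il1rn lay just below its 3 arrays. The edgeR test called 2.31% of 5327 genes, 1.31% higher and 0.995% lower at the border, and 0 of the 5 members tested, the lowest unadjusted p being 0.106 for Il1a, and DESeq2 called none of them. Over all genes the calls were 123, against 76 without Whole Tumor array 3 of Tumor 2 and 40 with DESeq2. The largest log2 change was that of Il18, at -0.84 (SE 0.67, adjusted p = 0.674). The C1q type made up 71.6% of these barcodes at the border and 37.5% to 63.5% in the arrays. The alveolar type, which held most Il18 UMIs, made up 3.55% at the border and 21.2% to 30.0% in the arrays. Its part in the Il18 value was not tested. Within the C1q type the border lay below each array for Il1b, at 1943 CPM against 3766 ± 785 CPM, and for Il1rn, at 842 CPM against 1349 ± 138 CPM (SD, n = 3 each). For Il1a it lay just above them, at 289 CPM against 198 ± 90.7 CPM (SD, n = 3). These values within the type were not tested. Of the pathway, Nfkbia, the inhibitor of NF-κB, was higher at this border by 1.02 (SE 0.26, adjusted p = 0.0322), the 1 gene called of 18 in signalling. That call was lost with at least 3 markers (adjusted p = 0.0592) and without the first (0.0910) or second (0.0611) Whole Tumor array of Tumor 2.

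Between the Whole Tumors, macrophage-like sums were called apart in the antagonist, and Il18 UMIs lay almost wholly in Tumor 2. Il1rn was at 351, 489 and 291 CPM in the arrays of Tumor 1 and at 910, 876 and 812 CPM in those of Tumor 2, without overlap. Il1b was at 1827, 3110 and 3553 CPM in Tumor 1 and at 3202, 3130 and 1854 CPM in Tumor 2, with overlap. The edgeR test called 22.5% of 5327 genes, 14% higher and 8.5% lower in Tumor 2, and 2 of the 5 members tested. Il1rn was higher in Tumor 2 by 1.34 (SE 0.22, adjusted p = 3.64e-05), whereas Il1b was at 0.10 (SE 0.23, adjusted p = 0.800), Il1a at -0.11 (SE 0.25, adjusted p = 0.810) and Il1r2 at 0.15 (SE 0.25, adjusted p = 0.739). Il18, the other member called, passed the filter on low counts through Tumor 2 alone, so that its call only restates the counts. It had 48 UMIs in Tumor 2 and 1 UMI in Tumor 1, a ratio of levels of 46.8 (8.01 to 1887). With at least 3 markers and with the replicate block Il18 did not pass the filter on low counts and was not tested. Alveolar-type barcodes, which held 47 of the 48, made up 21.2% to 30.0% of the class in these arrays and were absent from Tumor 1. Among the pathway genes, Ccl2, a monocyte chemokine, was higher in Tumor 2 by 2.90 (SE 0.45, adjusted p = 1.99e-05) and Prtn3, a neutrophil granule protease, was at -5.34 (SE 0.60, adjusted p = 1.51e-07).

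Between the Whole Tumors in neutrophil-like sums, 6 of 7 induced genes were higher in Tumor 2 and 1 was lower, with a median of 2.57 against -0.25 over all genes, of which 21.9% were called higher and 20.6% lower. Ptgs2 was higher by 3.31 (SE 0.20, adjusted p = 2.31e-18), Nlrp3 by 3.54 (SE 0.21, adjusted p = 1.20e-18) and Nfkbiz by 3.32 (SE 0.19, adjusted p = 4.87e-19). Ccl2 was higher by 4.51 (SE 1.26, adjusted p = 0.00359). This test shares the Whole Tumor arrays of each tumor with the border test of that tumor, so that a high value in the arrays of Tumor 2 enters both this test and the Tumor 2 border test.

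Epithelial-like and macrophage-like sums were compared within the 3 Whole Tumor arrays of Tumor 1. There edgeR called 52% of 4157 genes, 27.4% higher and 24.6% lower in epithelial-like sums. Il33 had 73 UMIs against 0, at least 30.3-fold higher against a floor of 3 UMIs over the 3 arrays. It passed the filter on low counts through the epithelial-like sums alone, so that its call only restates these counts. Il1b was at -4.66 (SE 0.34, adjusted p = 3.91e-22), Il1r2 at -2.37 (SE 0.41, adjusted p = 4.29e-07) and Il1a at -1.30 (SE 0.30, adjusted p = 0.000125). Il1rn was at 0.03 (SE 0.27, adjusted p = 0.935), with 545, 238 and 226 CPM in epithelial-like and 351, 489 and 291 CPM in macrophage-like sums. The antagonist was thus the 1 member of 5 for which the 2 classes overlapped and were not called apart. Il18r1, a chain of the IL-18 receptor, was also called higher in epithelial-like sums. Over all libraries it had 82 UMIs in epithelial-like and 3 in macrophage-like barcodes, too few in the latter for an exact difference. Nlrp3 was at -3.46 (SE 0.47, adjusted p = 7.13e-10).

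Single neutrophil-like barcodes often carried agonist and antagonist together. A UMI of both Il1b and Il1rn was found in 68.4% to 75.5% of barcodes in the arrays of Tumor 1 and in 47.7% to 63.6% in those of Tumor 2, and in 84.2% and 81.1% at the borders. Il1b without Il1rn was found in 6.20% to 8.27% of barcodes in the arrays of Tumor 1 and in 32.5% to 49.7% in those of Tumor 2. Il1rn without Il1b was found in 16.8% to 18.8% and 0.671% to 2.63% of them. UMIs were uneven among barcodes. The tenth of neutrophil-like barcodes with the most Il1b held 50.3% of its UMIs in Whole Tumor 1 and 33.7% in Whole Tumor 2, whereas for Il1rn the order was reversed, with 33.5% and 50.5%. These shares are not thinned, and the second array of Tumor 2 had a median of 589 UMIs per neutrophil-like barcode against 2042 to 2530 in the other 5 arrays.

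For the 6 members with at least 200 UMIs, which leaves out Il18, Il33 and Il18bp, the genes whose level followed each most closely were sought over 16 sums of class by tumor and region, which share libraries and depth, as Pearson r of log2(CPM + 10). Il1b was followed most closely by Taldo1 (r = 0.961), Slc7a11 (0.9499) and Basp1 (0.947), and Il1a by Mpp1 (0.951), F10 (0.945) and Clec4e (0.929). Il1rn was followed by Ptafr (0.963), Cd300a (0.959) and 1110007C09Rik (0.956). Of the receptors, Il1r2 was closest to Il1b itself (0.936), then to Rasgrp4 (0.922) and Hilpda (0.912), Il1rap to S100a8 (0.924), which is a marker of the gate, Hist1h2be (0.920) and Cd101 (0.916), and Il1r1 to Ttc28 (0.895), Plekha5 (0.886) and Adamts10 (0.885). Il1b was the 1 member among the nearest genes of another member.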

How the data were processed

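Raw UMI counts per gene and barcode were deposited, made by the authors with bcl2fastq 2.17.1.14, the Drop-seq protocol and alignment by STAR 2.5.2b (build mm10). Strand use is not given in the sources used here. No column of values was left unused.

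The members and gene lists were chosen with earlier results of these data known. Barcodes with at least 200 genes were gated by markers, and no doublet caller was run. The deposited counts were summed per class and library (at least 10 barcodes) and tested with edgeR 4.0.16 (quasi-likelihood test, TMM scaling, low counts removed by filterByExpr, p adjusted by Benjamini-Hochberg over all genes tested, threshold 0.05), with DESeq2 1.42.0 as an alternative. The cell-level test of the methods was not used, since cells of 1 mouse are not replicates. Fits were tested on simulated data. Members that did not pass the filter on low counts in a comparison were not tested there. Of the other listed genes called, only some are named, mostly from those with the largest change. Python 3.11.15 and scipy 1.17.1 were used. Alternatives were scalings, no filter, stricter barcode and marker cuts, left-out barcodes or libraries and single tumors. The 10 barcode sequences shared between libraries all resemble the primer, and leaving out such barcodes, or each library from summed levels, was chosen after seeing the data. Some items withheld for evaluation are not reported here.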

Additional observations from a re-analysis of the deposited data

Results flagged for a closer look

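The change of Il1b at the border in neutrophil-like barcodes differed between the tumors by 2.47 on the log2 scale (Tumor 1 minus Tumor 2, interaction term, edgeR), the border library being higher than each array of Tumor 1 (6148 CPM against at most 4756) and lower than each of Tumor 2 (8557 CPM against at least 16516).

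The change of Il1rap at the border differed by 2.72 in the same test, which rests on 74 UMIs at the border of Tumor 1 and 11 at that of Tumor 2.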

How the results depend on the processing

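Of 760 log2 fold changes of members under the alternatives, 716 kept direction and side of the threshold, 15 lost their call, 6 gained one and 23, none of them called, changed sign. Of 504 changes of other named genes, 487 kept both and 17 lost their call. With at least 500 genes per barcode, 1 member was called at the border of Tumor 1, of Tumor 2 and for their difference. Of all genes 3.81%, 2.65% and 3.26% were called there. Between the Whole Tumors in macrophage-like sums 1 member was called with at least 3 markers (22.7% of all genes) and 1 with the replicate block (24.7%). Il18 did not pass the filter there, and the block changed no other count of members. Array numbers did not pair across tumors (r = -0.0460 to 0.0172). For the Retnlg type over the Siglecf type, 1 member was called with library size only, with no filter, without barcodes of a second lineage and in Tumor 1 alone. Of all genes 8.67%, 0.791%, 9.26% and 6.14% were called in that order. On leaving out an array 0 to 2 members were called, and 3.26% to 7.83% of all genes. No fit was possible for Tumor 2 alone. The cause of these changes was not tested.

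Signs changed with library size only at the Tumor 1 border for Il1rap (-0.27), for the difference between borders for Il1rn (-0.19), in macrophage-like Whole Tumors for Il1b (-0.076) and Il1r2 (-0.026), between types for Il1r2 (-0.24, and -0.094 with 3 markers) and in epithelial-like over macrophage-like sums for Il1rn (-0.23, -0.24 with no filter, -0.075 with 500 genes and -0.038 without a second lineage). Il1a changed to 0.012 in macrophage-like Whole Tumors without a second lineage, and in neutrophil-like over macrophage-like sums to -0.0017 with 3 markers and -0.44 in Tumor 2 alone. Leaving out 1 array gave -0.038 to 0.11 for Il1r2 in neutrophil-like and -0.063 to 0.12 in macrophage-like sums at the Tumor 2 border. In macrophage-like Whole Tumors it gave -0.44 to 0.10 for Il1a, -0.15 to 0.32 for Il1b and -0.010 to 0.41 for Il1r2. It gave -0.0056 to 0.45 for Il1a in neutrophil-like over macrophage-like sums, -0.11 to 0.12 for Il1r2 between the types and -0.53 to 0.44 for Il1rn in epithelial-like over macrophage-like sums.

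Genes called at the border of Tumor 1 were 524, and 1082 with library size only, 320 with no filter, 292 with DESeq2, 247 with 500 genes and 320 without a second lineage. For Tumor 2 they were 482, and 193, 300, 172 and 311 with no filter, DESeq2, 500 genes and no second lineage. For the difference they were 642, and 1228, 314, 351, 211 and 426 in the order of Tumor 1. Depth limits Il18, Il33 and Il18bp, each under 110 UMIs.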

Other observations

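Il1rl1, which encodes the IL-33 receptor ST2 and was no gating marker, had 352 UMIs in T/NK/ILC-like barcodes (1239 CPM, 1113 to 1375), of which 327 lay in the 30 barcodes of the ILC2 type, 70.0% of which had a UMI. Unassigned barcodes held a further 319 of its 765 UMIs. In B-like barcodes the share was 1.39%. Il18r1 had 370 CPM (302 to 447) in T/NK/ILC-like and 94.0 CPM (74.8 to 117) in epithelial-like barcodes. Il18rap, its partner chain, had 289 CPM (230 to 358) in T/NK/ILC-like and 236 CPM (221 to 253) in neutrophil-like barcodes, where Il18r1 was at 6.08 CPM.

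Il1f9, the IL-36 gamma gene, had 5093 UMIs in neutrophil-like barcodes (1408 CPM, 1370 to 1448), 50.7% of which had a UMI, and 4.19 CPM in macrophage-like ones. Unassigned barcodes held 1863 Il1rn and 590 Il1a UMIs. At the border of Tumor 1 their levels were 4821 and 1997 CPM, against 1329 ± 238 and 305 ± 15.1 CPM in the unassigned barcodes of its arrays (SD, n = 3 each).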
